A study of Caenorhabditis elegans with 2 samples.

Results

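Genes annotated as transfer RNA (tRNA) genes on chromosome X of the nematode Caenorhabditis elegans were examined for occupancy by the nuclear hormone receptor NHR-237. They were chosen by biotype and chromosome in the WBcel235 annotation (build ce11), and numbered 276 of the 612 nuclear tRNA genes. No measured value of a gene entered the rule, but earlier results of these data were known when it was made. The other 336 lie on the autosomes and served as the comparison. Chromosome X holds 17.7% of the nuclear sequence and 45.1% of the nuclear tRNA genes.

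Occupancy was mapped by chromatin immunoprecipitation and sequencing (ChIP-seq) in whole mixed-stage embryos of strain OP228, with both sexes pooled. The strain carries the unc-119(ed3) III allele and the transgene wgIs228, from which NHR-237 tagged with eGFP is made, and the tagged protein was the target of the precipitation. There were 2 biological replicates in 1 group. Both replicates carry the transgene and the unc-119 allele, and no untagged embryos were analysed here. The samples are whole embryos of many stages, so a high signal in few cells and a low signal in many cells cannot be told apart.

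Transfer RNAs carry amino acids to the ribosome and read the codons of messenger RNA. Their genes are transcribed by RNA polymerase III from promoters that lie inside the transcribed sequence: TFIIIC binds 2 internal elements, box A near the 5′ end and box B near the 3′ end, and brings TFIIIB to the DNA just upstream, where it recruits the polymerase. Transcription ends at a run of T after the gene. Because each amino acid is served by many near-identical gene copies, a nematode genome holds a great many such genes, scattered singly and in small groups, many of them inside introns of other genes.

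The following 6 distinct sequences are carried by 6 of the X tRNA genes of highest IDR signal, but not by the 6 highest in order. F41D9.t3, with 203.5, C28G1.t1, with 198.9, and M02F4.t2 and M02F4.t1, with 175.4 each, were passed over. The rule for this is given with the processing of the data. Each is the reference sequence of the whole gene, 5′ to 3′ on the coding strand of ce11. Capitals mark the exact box A core, TGGCNNAG, and the exact box B core, GTTCGANNC, where the gene holds them.
C04E7.t1: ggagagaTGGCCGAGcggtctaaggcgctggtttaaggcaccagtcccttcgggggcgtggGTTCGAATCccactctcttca
R04A9.t1: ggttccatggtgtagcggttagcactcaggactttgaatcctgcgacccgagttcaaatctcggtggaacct
R11.t1: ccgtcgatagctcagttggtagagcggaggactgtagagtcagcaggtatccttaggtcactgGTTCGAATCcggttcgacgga
F46G11.t2: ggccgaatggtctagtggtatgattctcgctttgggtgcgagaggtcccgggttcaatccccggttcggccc
C33G3.t2: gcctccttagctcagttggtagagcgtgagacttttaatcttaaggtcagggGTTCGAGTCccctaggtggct
R04D3.t2: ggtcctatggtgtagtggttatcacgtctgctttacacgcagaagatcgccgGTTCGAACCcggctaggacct
C04E7.t1 (X:353255-353336, minus strand) encodes tRNA-Leu and R04A9.t1 (X:410391-410462, plus strand) encodes tRNA-Gln. R11.t1 (X:16209769-16209852, minus strand) encodes tRNA-Tyr and has an intron, and F46G11.t2 (X:5801211-5801282, minus strand) encodes tRNA-Pro. C33G3.t2 (X:14063946-14064018, minus strand) encodes tRNA-Lys and R04D3.t2 (X:13307034-13307106, plus strand) encodes tRNA-Val. R04A9.t1 and F46G11.t2 have no capitals because neither core is present letter for letter.

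The annotation of the genes was checked against these promoter elements. The exact box B core was present in 200 of 276 X tRNA genes, or 72.5%, and in 241 of 336 autosomal tRNA genes, or 71.7%. It was present in 0.254% of consecutive 72-bp windows of X, searched on the plus strand. With 1 mismatch at a lettered position allowed, all 276 X genes held it. The exact box A core was present in 42 X genes, or 15.2%, and in 66 autosomal genes, or 19.6%, beside 0.804% of the same 72-bp windows of X. No mismatch was allowed for box A, so genes without these exact letters cannot be said to lack a box A. A run of 4 T followed within 30 bp of 273 of the 276 X genes. Of the 41 X genes with an IDR summit, 30 were among the 200 with the exact box B core (15.0%) and 11 among the 76 without it (14.5%).

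Peak lists were read on ce11. The authors' list after the irreproducible discovery rate (IDR) procedure, which weighs how alike peaks rank between replicates, held 1626 peaks, of which 248 lay on X. These were the 1626 peaks of highest signal in the pooled list, which held 30000 peaks, as did the list of replicate 2. The list of replicate 1 held 10872. The pooled and replicate lists include background regions, and read depth is unknown. Signal is the authors' caller's value for a peak and was compared within a list only. A gene was counted as having a summit when the deposited summit of a peak lay between 500 bp upstream and 200 bp downstream of its 5′ end.

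An IDR summit lay at 41 of the 276 X tRNA genes, or 14.9% (95% Clopper-Pearson interval 10.9% to 19.6%), against 21 of 336 autosomal tRNA genes, or 6.25% (3.91% to 9.4%). By the same window, 5.49% of all nuclear genes other than piRNA genes had an IDR summit. The share was 3.35% among X genes that are neither tRNA nor piRNA genes and 5.85% among the corresponding autosomal genes. The X tRNA share thus lay above the other genes of the same chromosome, and the autosomal tRNA share was near that of the other autosomal genes. A share this high was not particular to X tRNA genes. Autosomal small nucleolar RNA (snoRNA) genes had an IDR summit at 45 of 313, or 14.4%, and X snoRNA genes at 1 of 33. For X tRNA genes with no exact second copy in the genome, the share was 3.64% (2 of 55). These shares are descriptions without a test, since the samples form 1 group, and their intervals cover counting error only.

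The excess of X over autosomes was smaller in the longer lists. A pooled-list summit lay at 133 of 276 X tRNA genes, or 48.2% (42.2% to 54.3%), against 150 of 336 autosomal tRNA genes, or 44.6% (39.3% to 50.1%), while 29.6% of all nuclear genes other than piRNA genes had one. These 2 intervals overlap widely. Autosomal snoRNA genes had a pooled-list summit at 148 of 313, or 47.3%. A summit in both replicate lists was found at 89 X genes, or 32.3% (26.8% to 38.1%), against 76 autosomal genes, or 22.6% (18.3% to 27.5%). Among all nuclear genes other than piRNA genes, 12.7% had one. Of the X tRNA genes, 123 had a summit in no list, or 44.6%, against 164 autosomal tRNA genes, or 48.8%.

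Where a pooled summit was present, its signal was higher at X tRNA genes, with a median of 46.3 (20.1 to 218, n = 133), than at autosomal tRNA genes, with a median of 37.6 (19.5 to 171.9, n = 150). The median over all nuclear pooled peaks was 26.8. In the IDR list the median was 122.5 at X tRNA genes (73.9 to 218, n = 41) and 88.6 at autosomal tRNA genes (73.0 to 171.9, n = 21), with 105.3 over all nuclear IDR peaks. Neighbouring genes can share a summit: with each gene's highest summit counted once, a choice made after the data were seen, the IDR median was 104.9 on X (37 summits), close to that of all IDR peaks, and 88.6 on the autosomes (19 summits). In replicate 1 the medians were 28.5 at X tRNA genes and 24.7 at autosomal tRNA genes, and in replicate 2 they were 25.3 at X tRNA genes and 22.3 at autosomal tRNA genes. The ranges of X and autosomal genes overlapped in every list.

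**Figure D1:**
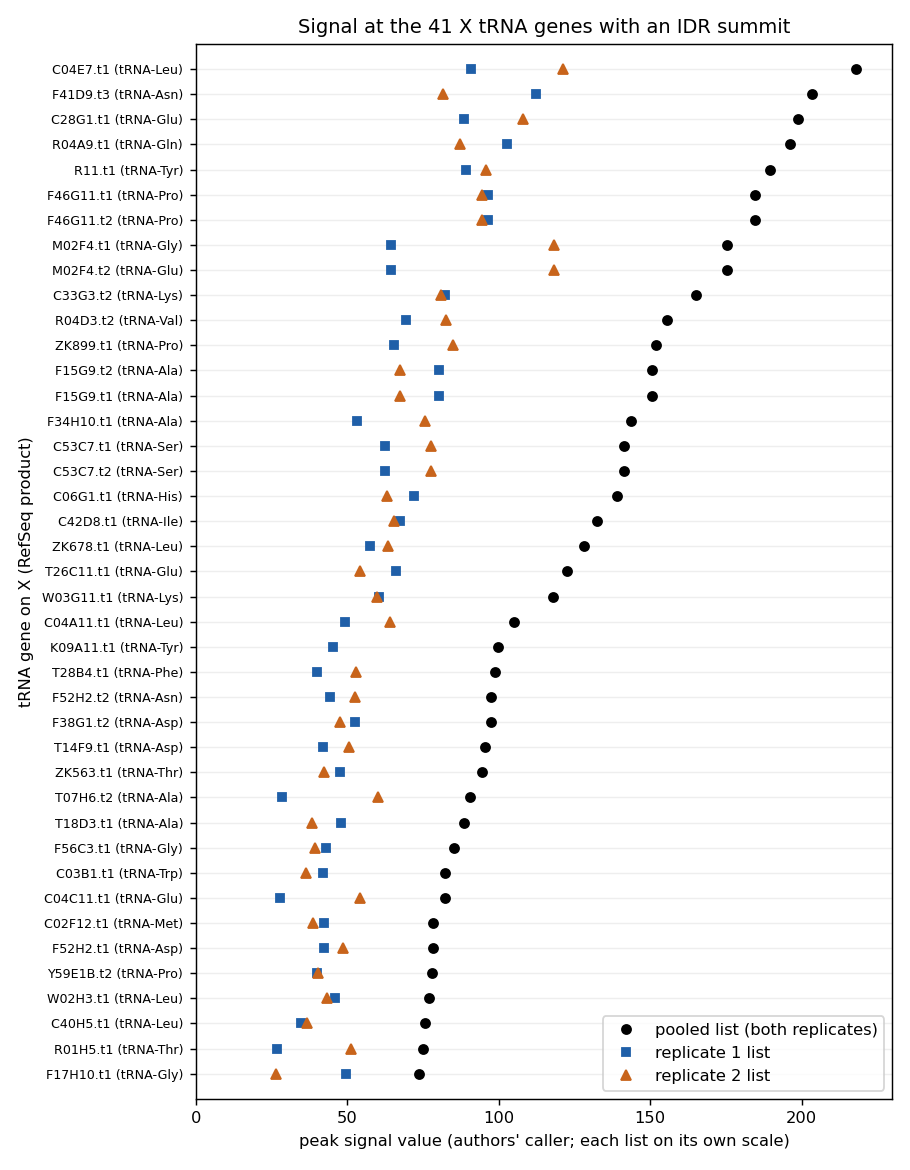
Peak signal (x axis, the authors' signal value, each list on its own scale) at each of the 41 X tRNA genes with an IDR summit (y axis, ordered by pooled signal), with circles for the pooled list, squares for replicate 1 and triangles for replicate 2. Pooled values run between 73.9 and 218, and K09A11.t1 has no replicate 2 summit in its window.

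The 41 genes shared 37 summits as their highest, since 4 summits each served a pair of neighbouring genes. C04E7.t1 (WBGene00022908), a tRNA-Leu gene, had the highest signal, 218 in the pooled list, 91.0 in replicate 1 and 121.4 in replicate 2. Its summit lay 38 bp upstream of the 5′ end and also inside the promoter window of sor-3, which encodes a protein related to the Polycomb-like factor SOP-2. F41D9.t3 (WBGene00023042), a tRNA-Asn gene inside an intron of sulp-3 and antisense to it, had 203.5 in the pooled list, 112.5 in replicate 1 and 81.7 in replicate 2. It lies 3668 bp from the nearest protein-coding promoter window, so its summit 33 bp upstream is in no such promoter.

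C28G1.t1 (WBGene00022947), a tRNA-Glu gene that overlaps an exon of C28G1.2, had 198.9 in the pooled list, 88.6 in replicate 1 and 108.1 in replicate 2. Its summit, 79 bp upstream, also lay in the promoter windows of C28G1.2 and of sec-15, which encodes an exocyst subunit. R04A9.t1 (WBGene00023117), the tRNA-Gln gene shown above, had 196.2 in the pooled list, 102.6 in replicate 1 and 87.3 in replicate 2, at a summit 161 bp upstream and within the promoter window of ZK1193.2. That was the greatest distance among the X tRNA genes, taking the highest IDR summit of each gene. R11.t1 (WBGene00014486), the tRNA-Tyr gene, had 189.6 in the pooled list, 89.4 in replicate 1 and 95.7 in replicate 2. Its summit lay inside the gene, 20 bp after the 5′ end.

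Several of the other leading genes stand in pairs that point away from each other. F46G11.t2 (WBGene00023051) and F46G11.t1 (WBGene00023050) are tRNA-Pro genes of identical sequence, and the summit between them had 184.6 in the pooled list, 96.6 in replicate 1 and 94.7 in replicate 2. It lay 94 bp upstream of one and 96 bp upstream of the other. M02F4.t2 (WBGene00023111), a tRNA-Glu gene, and M02F4.t1 (WBGene00023110), a tRNA-Gly gene, shared a summit of 175.4 in the pooled list, 64.6 in replicate 1 and 118.4 in replicate 2. The summit was 74 bp upstream of the tRNA-Glu gene and 43 bp upstream of the tRNA-Gly gene, and both pairs lie more than 1000 bp from any protein-coding promoter window.

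C33G3.t2 (WBGene00014275), a tRNA-Lys gene 3766 bp from the nearest promoter window, had 165.2 in the pooled list, 82.2 in replicate 1 and 80.9 in replicate 2, with its summit 71 bp after the 5′ end. R04D3.t2 (WBGene00014478), a tRNA-Val gene with another tRNA 5′ end 996 bp away, had 155.6 in the pooled list, 69.3 in replicate 1 and 82.8 in replicate 2, with its summit 58 bp after the 5′ end. ZK899.t1 (WBGene00014634), a tRNA-Pro gene 4170 bp from the nearest promoter window, had 152.0 in the pooled list, 65.5 in replicate 1 and 85.0 in replicate 2. These genes were named for their high signal in the pooled list, which was made from the same replicates. For scale, the median over all nuclear peaks was 20.9 in replicate 1 and 15.3 in replicate 2.

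At the lower end of the IDR list, F17H10.t1 had 73.9 in the pooled list, 49.6 in replicate 1 and 26.5 in replicate 2. The X tRNA genes of highest signal with no IDR summit were the tRNA-Arg genes F41D9.t1 and F41D9.t2, which shared a summit of 70.1 in the pooled list, 46.6 in replicate 1 and 25.3 in replicate 2. C52G5.t1, a tRNA-Val gene, had 70.0 in the pooled list and 34.7 in replicate 1, with no replicate 2 summit in its window. The values on either side of the list's end are thus alike. The 3 autosomal tRNA genes of highest signal were C37A2.t1 (tRNA-Cys, chromosome I), with 171.9, F57F5.t1 (tRNA-Ile, chromosome V), with 139.7, and Y38E10A.t1 (tRNA-Ala, chromosome II), with 112.3 in the pooled list.

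The summits sat at the genes themselves. The highest IDR summit was within 100 bp of the 5′ end at 40 of 41 X tRNA genes, or 97.6% (87.1% to 99.9%), against 18 of 21 autosomal tRNA genes, or 85.7%. For X protein-coding genes with an IDR summit in the same window the share was 16 of 103, or 15.5%, with a median position 224 bp upstream. Other non-coding X genes, leaving out piRNA genes, had 39 of 84, or 46.4%. In the pooled list, 96 of 133 X tRNA genes, or 72.2%, and 100 of 150 autosomal tRNA genes, or 66.7%, had their summit that close. IDR peaks at X tRNA genes had a median width of 396 bp and the deposited summit was the peak midpoint for 94.2% of all IDR peaks, so the position is coarse against genes of some 72 bp.

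Within this narrow range the summits fell to both sides of the 5′ end: 21 X genes had it upstream of the gene, 17 inside and 3 beyond the 3′ end. Signal had a median of 141.3 at the X genes with an upstream summit and 99.6 at those with a summit inside the gene. The autosomal numbers were 7 upstream, 11 inside and 3 beyond, with median signals of 83.5 upstream and 97.5 inside. Sequence uniqueness differed with position, which follows in part from the genes themselves. Inside X tRNA genes, a median of 0% of the 31-base words were unique, so a stretch centred in a gene tends to hold repeated words. At upstream summits on X a median of 100% of the 31-base words within 50 bp of the summit were unique in the nuclear genome, against 52.1% at summits inside the gene. The part of sequence uniqueness in summit position or signal was not tested.

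**Figure D2:**
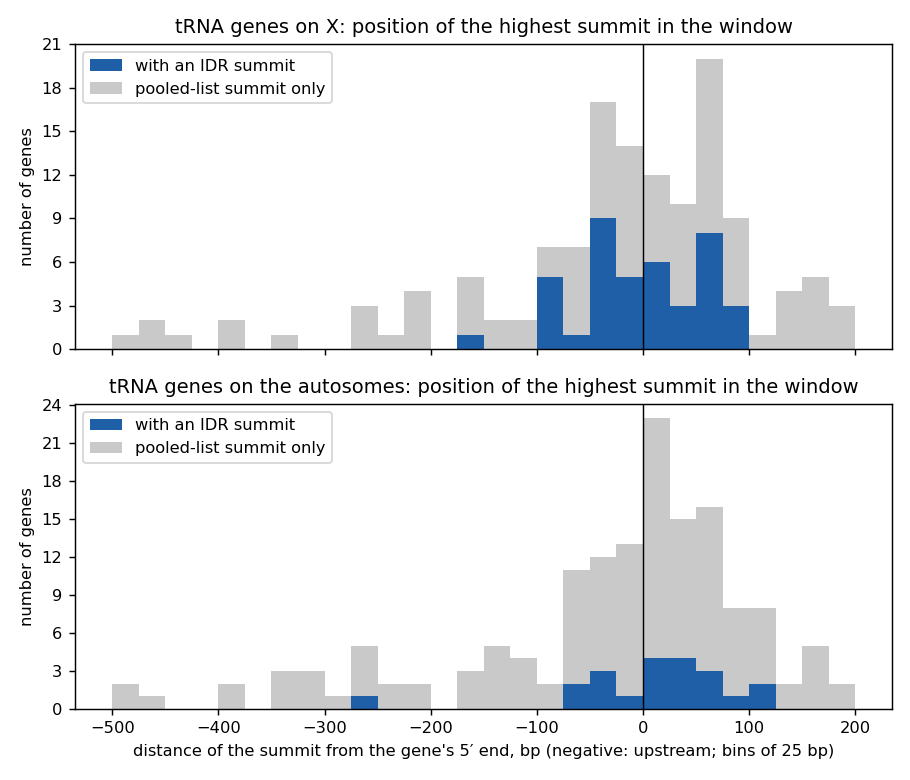
Distance of the highest summit in the window from the 5′ end (x axis, bp, negative upstream) as stacked numbers of genes (y axis), for X tRNA genes above and autosomal tRNA genes beneath; blue marks genes with an IDR summit and grey those with a pooled-list summit only. The highest IDR summits of the genes lie between 161 bp upstream and 97 bp downstream on X and between 259 bp upstream and 108 bp downstream on the autosomes.

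Seen from the peaks, 39 of the 248 IDR summits on X, or 15.7% (11.4% to 20.9%), lay in the window of a tRNA gene, against 19 of 1363 on the autosomes, or 1.39%. Leaving out summits in protein-coding promoter windows, tRNA windows held 35 of 146 X summits, or 24.0%, against 13 of 452 autosomal ones, or 2.88%. The summits in X tRNA windows were not the strongest of the chromosome: their median signal was 99.6, against 112.9 for the other X summits, when each summit is counted once. The stretches 50 bp to either side of the summits in tRNA windows held the box B core at 12 of 39 on X, or 30.8%, and at 5 of 19 on the autosomes, or 26.3%. The other X summits held it at 3 of 209, or 1.44%, and all nuclear IDR summits at 1.92%. Such a match can be the box B of the tRNA gene itself, so it is no separate observation from the position of the summit.

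The X count was much the same away from protein-coding promoters. By the same window around protein-coding transcripts, 6.69% of protein-coding genes had an IDR summit. An IDR summit outside every protein-coding promoter window was found at 37 of 276 X tRNA genes, or 13.4%, against 13 of 336 autosomal tRNA genes, or 3.87%. Among isolated genes, whose 5′ end is 1000 bp or more from every protein-coding promoter window, 23 of 171 X genes had an IDR summit, or 13.5% (8.72% to 19.5%), against 4 of 157 autosomal genes, or 2.55% (0.698% to 6.4%). Among the genes that were not isolated, 18 of 105 X genes had one, or 17.1%, against 17 of 179 autosomal genes, or 9.5%. From the top 1626 peaks of replicate 1, without replicate 2, the isolated shares were 13.5% on X and 5.1% on the autosomes. Signal at isolated X genes had a median of 141.3 (n = 23), or 122.5 over their 19 distinct summits, against 79.3 at isolated autosomal genes (n = 4). Isolated genes in the pooled list differed little, with 82 of 171 on X, or 48.0%, and 72 of 157 on the autosomes, or 45.9%.

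Other tRNA genes close by went with a lower share on X. With no other tRNA 5′ end within 1000 bp, 31 of 145 X genes had an IDR summit, or 21.4% (15.0% to 29.0%), against 17 autosomal genes, or 7.17% of that kind (4.23% to 11.2%). With at least 1 such neighbour, 10 of 131 X genes had a summit, or 7.63% (3.72% to 13.6%), against 4 of 99 autosomal genes, or 4.04%. With 2 or more neighbours, R11.t1 was the one gene with a summit among 50 on X, and none of 15 autosomal genes had one. In genes that had a neighbour and were not isolated, the X share was the lower, 2 of 42, or 4.76%, against 4 of 57 on the autosomes, or 7.02%. This grouping was chosen after the data were seen.

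Inside introns of protein-coding genes, 12 of 95 X tRNA genes had an IDR summit, or 12.6%, against 13 of 188 autosomal ones, or 6.91%. Outside protein-coding genes the numbers were 28 of 180 on X, or 15.6%, and 8 of 142 on the autosomes, or 5.63%. The remaining X gene with a summit was C28G1.t1, which overlaps an exon. Genes in introns of the opposite strand, such as F41D9.t3, had a summit at 5 of 45 on X, or 11.1%, and those in introns of the same strand at 7 of 50, or 14.0%. The 50 bp upstream had a median AT content of 56% at X genes with an IDR summit and 62% at X genes without one, against 54% with one and 56% without one at autosomal genes.

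**Figure D3:**
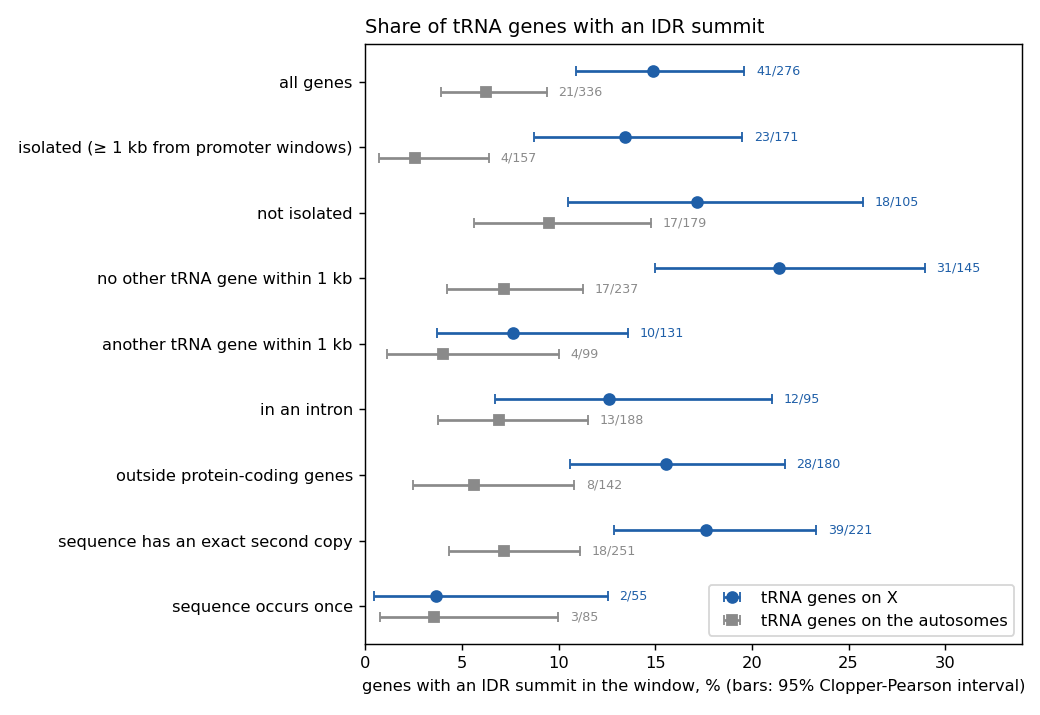
Share of tRNA genes with an IDR summit (x axis, percent) on X and, beneath each, on the autosomes, for all genes and by surroundings and copy number, with 95% Clopper-Pearson intervals as lines. X lies higher in most groups, such as 13.5% against 2.55% for isolated genes, and the values for genes whose sequence occurs once, 3.64% on X and 3.53% on the autosomes, nearly coincide.

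The excess on X was seen in genes that have identical copies. Of X genes with an exact second copy in the genome, 39 of 221 had an IDR summit, or 17.6% (12.9% to 23.3%), against 18 of 251 autosomal ones, or 7.17% (4.31% to 11.1%). Of X genes with no exact second copy, 2 of 55 had one, or 3.64% (0.444% to 12.5%), against 3 of 85 autosomal ones, or 3.53% (0.734% to 9.97%). The 2 X genes were C04A11.t1, a tRNA-Leu gene with 104.9 in the pooled list, 49.2 in replicate 1 and 64.3 in replicate 2, and K09A11.t1, a tRNA-Tyr gene with 99.6 in the pooled list and 45.2 in replicate 1. They are named because they are all of that count, and both have an intron. With no exact second copy, pooled summits lay at 16 of 55 X genes, or 29.1%, and 26 of 85 autosomal ones, or 30.6%. Both shares were near the 29.6% of all nuclear genes other than piRNA genes. The X share with an IDR summit, 3.64%, was likewise near the 3.35% of X genes that are neither tRNA nor piRNA genes. With an exact second copy, the pooled shares were 52.9% on X and 49.4% on the autosomes. The sources used here do not give the rule by which reads matching more than 1 copy were placed, and its part in the excess was not tested.

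Genes of identical sequence differed in whether they had a summit. The 276 X genes carry 106 distinct sequences, of which 33 are carried by 2 or more X genes, 203 genes in all. In 22 of the 33, at least 1 gene had an IDR summit and at least 1 had none, in 11 no gene had one, and in 0 did every gene have one. With a summit at 14.9% of all X tRNA genes, a sequence with one at every gene would be rare in any case. The tRNA-Pro sequence printed for F46G11.t2 is carried by 13 X genes. F46G11.t2 and F46G11.t1 had 184.6 and ZK899.t1 had 152.0 in the pooled list, H06A10.t1 had 56.4, C16B8.t1 had 41.2, R04D3.t3 had 30.9, and the other 7 had no pooled summit. The genes of this one sequence thus ran through nearly the whole range of the X tRNA genes. The sequence was printed because it belongs to a gene of high signal, so a high value beside lower ones follows in part from that choice.

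The same held for the other repeated sequences printed above, each likewise printed for a gene of high signal. The tRNA-Leu sequence of C04E7.t1 is carried by 9 X genes, of which C04E7.t1 had 218 in the pooled list, F14B8.t1 had 58.9, 4 more had between 20.1 and 44.6, and 3 had none. The tRNA-Gln sequence of R04A9.t1 is carried by 9 X genes, of which R04A9.t1 had 196.2, 6 more had between 29.4 and 50.8, and H35N09.t1 and C05E7.t2 had no pooled summit. The tRNA-Tyr sequence of R11.t1 is carried by 6 X genes, and C02B4.t2, with 57.0, was the only other one with a pooled summit. Of the 5 X genes with the tRNA-Lys sequence of C33G3.t2, none but C33G3.t2 had a pooled summit. Genes with the same sequence thus differed in the signal given to them. How reads matching several copies were placed is not known here, and its part in these differences was not tested.

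The amino acids served were spread widely. By RefSeq product, available for 273 of the 276 X genes, IDR summits were found at genes of 18 of the 20 standard amino acids. They lay at 5 of 13 tRNA-Ala genes and 5 of 17 tRNA-Leu genes, at 4 of 23 tRNA-Glu and 4 of 20 tRNA-Pro genes, and at 3 of 20 tRNA-Gly and 3 of 12 tRNA-Asp genes. Another 5 products, Asn, Lys, Ser, Thr and Tyr, had 2 genes each, and 7 products, Gln, His, Ile, Met, Phe, Trp and Val, had 1 each. None of 27 tRNA-Arg genes and none of 7 tRNA-Cys genes on X had one, although pooled summits lay at 9 of the 27 and at 6 of the 7. On the autosomes, 1 of 17 tRNA-Arg and 2 of 6 tRNA-Cys genes had an IDR summit, and the products with most were Ala, Ile and Lys, with 3 each.

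**Figure D4:**
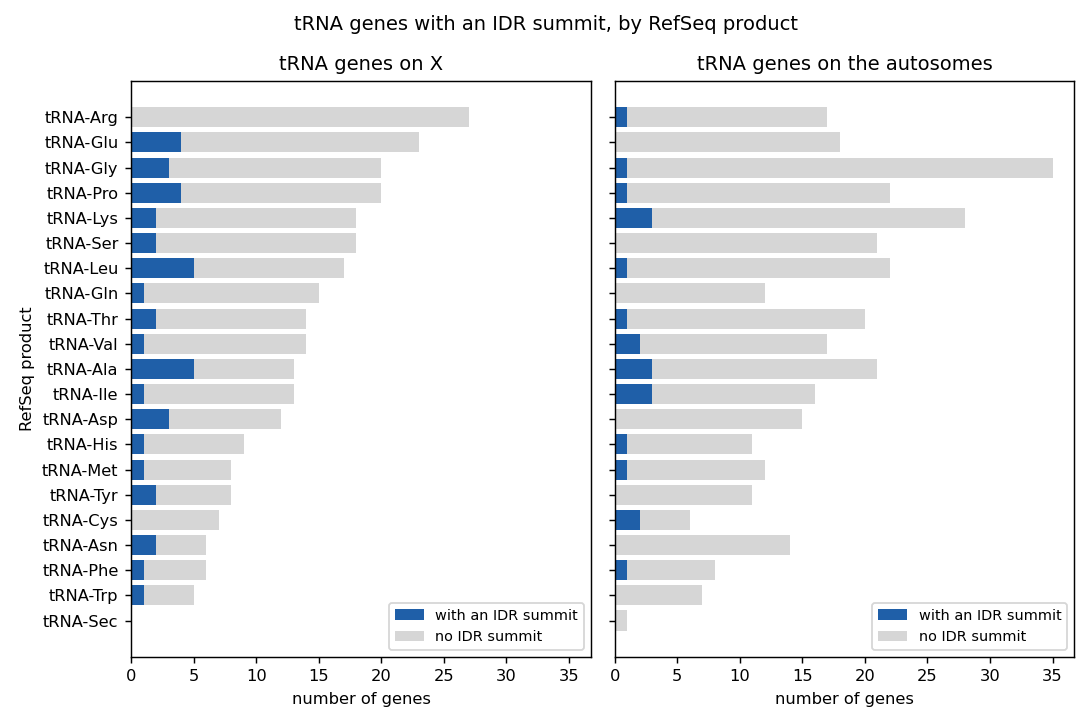
Numbers of tRNA genes (x axis) with an IDR summit (blue) and without one (grey) for each RefSeq product (y axis), on X at left and on the autosomes at right. On X the summits are spread over 18 products, with 5 each at tRNA-Ala and tRNA-Leu and none at the 27 tRNA-Arg genes.

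The replicates were compared over the tRNA genes with a summit in both lists. On X these were 89 genes, with 13 more in replicate 1 only and 40 more in replicate 2 only, and the autosomes had 76, with 24 and 49 more. The summits of the replicates lay within 100 bp of each other at 72 of the 89 X genes and at 62 of the 76 autosomal genes. Over the 80 distinct pairs of summits on X, Pearson's r of log2 signal was 0.821 and Spearman's rho was 0.787, against 0.567 and 0.507 over 72 pairs on the autosomes. These are descriptions across genes, which share libraries and partly sequence. Each of the 41 X genes with an IDR summit had a replicate 1 summit (26.8 to 112.5, median 57.5), and 40 of them had a replicate 2 summit (26.5 to 121.4, median 63.3). The peaks of the IDR list were the 1626 of highest signal in the pooled list, which was made from the same replicates. Summits in both replicates thus follow largely from how the 41 genes were picked.

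**Figure D5:**
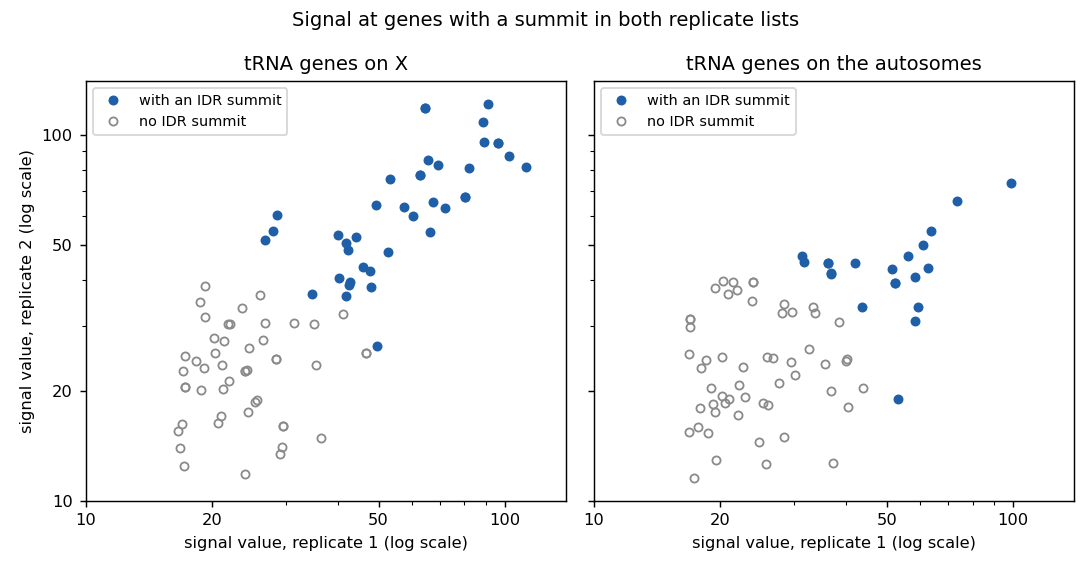
Signal in replicate 2 (y axis) against signal in replicate 1 (x axis), both on log scales, for tRNA genes with a summit in both lists, on X at left and on the autosomes at right. Filled points have an IDR summit, and on X they reach 112.5 in replicate 1 and 121.4 in replicate 2.

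Genes for the making and handling of tRNA were set beside the tRNA genes, from lists of well-known members. Every matched member lies on an autosome, so these lists say nothing about genes on X. Of 15 genes for RNA polymerase III and its factors, 4 had an IDR summit in the window, or 26.7% (7.79% to 55.1%), where the share over all protein-coding genes was 6.69%. They were mafr-1, the nematode Maf1, a repressor of RNA polymerase III, with 130.3, and rpb-10, rpb-5 and rpb-8, subunits shared among the nuclear RNA polymerases, with 111.9, 99.1 and 78.6. The members with no IDR summit included rpc-1, rpc-2, rpc-11, rpc-25, brf-1, tbp-1 and snpc-4. The rpb-10 summit also lay in the promoter window of Y37E3.1. Of 20 matched genes for tRNA maturation, modification and export, 0 had an IDR summit, where the interval reaches 16.8% and so takes in the share over all protein-coding genes. The place of homt-1 among these 20 is doubtful. Of 9 other non-coding genes made by RNA polymerase III, 1 had a summit, beside 5.49% of all nuclear genes other than piRNA genes. It was rpr-1, the RNA of RNase P, which trims the 5′ ends of tRNA precursors, with 131.4.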

How the data were processed

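Peak lists of 2 biological replicates were read as deposited, on ce11. Signal values were made by the authors' peak caller and left on its scale. The sources used here name no aligner, caller, version or IDR threshold, and no rule for reads that match several gene copies. The ce10 lists and the control alignment were not used here.

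Ensembl release 115 gene models and the WBcel235 sequence were used, with RefSeq products matched by WormBase identifier for 607 of 612 tRNA genes. Windows took 500 bp before and 200 bp after the 5′ end, by strand, and a gene took its summit of highest signal. No statistical test was made. Intervals are 95% Clopper-Pearson intervals and cover counting error only; genes that share a summit or a sequence are not independent.

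Members, gene lists and comparisons were chosen with earlier results of these data known. Gene sequences were printed, each distinct one once, for X genes of highest IDR signal with no exact copy on chromosome I. Named X genes were the 12 of highest IDR signal, with any sharing a summit, the 6 isolated ones of highest IDR signal and the 3 of highest pooled signal with no IDR summit; 3 autosomal genes were taken likewise. Alternatives were other windows, the peak midpoint, overlap with the gene, the nearest gene, the 813 higher IDR peaks, genes with no second copy, other isolation distances, each replicate alone and, added after the data were seen, genes with no other tRNA 5′ end within 1000 bp. The scripts were tested on simulated data. They ran in Python 3.11.15 with pandas 2.3.3, numpy 2.4.6, matplotlib 3.10.9 and scipy 1.17.1.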

Additional observations from a re-analysis of the deposited data

How the results depend on the processing

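The share of tRNA genes with an IDR summit was higher on X than on the autosomes in 11 of 11 settings for all genes and in 13 of 13 for isolated genes, but with genes that have no exact second copy the ratio was 1.03 for all genes and 1.28 for isolated ones, against 2.38 and 5.28 as reported. With a window that ended at the 5′ end, the shares were 7.97% on X, 8.19% for isolated X genes and 2.08% on the autosomes. With the 813 IDR peaks of higher signal they were 7.97% on X, 8.19% for isolated X genes, 1.19% on the autosomes and 0.637% for isolated autosomal genes. With genes that have no exact second copy they were 3.64% on X, 3.13% for isolated X genes and 3.53% on the autosomes. Giving each summit to the nearest 5′ end left 10.9% on X, and genes with no other tRNA 5′ end within 1000 bp, chosen after the data were seen, gave 21.4% on X. In a window of 300 bp upstream to 100 bp downstream, pooled summits lay at 41.3% of X genes and 37.2% of autosomal genes, and both replicates had one at 17.0% of autosomal genes. The box B core was in 100% of X genes with 1 mismatch. Apart from the smaller sets of genes, peaks or positions that these settings define, the cause was not tested. With each replicate alone, using its 1626 peaks of highest signal, the shares ran between 12.7% and 14.9% on X, 11.7% and 13.5% for isolated X genes, 4.76% and 7.44% on the autosomes, and 1.91% and 5.1% for isolated autosomal genes. Without replicate 2, the ratio of the isolated shares was 2.64. Other values for isolated genes also moved by over 1.5 times, within wide intervals: 8.77% on X with the nearest 5′ end, and on the autosomes 1.27% with the window that ended at the 5′ end and 5.47% outside every promoter window, where X had 14.3% and the ratio was 2.62. No paired analysis was possible because the samples form 1 group and no test was made. Depth is unknown, so genes with no summit cannot be called unoccupied.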

Other observations

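The X tRNA genes with an IDR summit were unevenly placed along the chromosome. Dividing X into 5 equal stretches by position on ce11, the first held 27 tRNA genes, of which 12 had an IDR summit, or 44.4%. The next held 30 genes, of which 7 had one, or 23.3%. The middle stretch held 89 genes, of which 6 had one, or 6.74%, and the following one held 74 genes, of which 13 had one, or 17.6%. The last held 56 genes, of which 3 had one, or 5.36%. Crowding differed along with it: 8 of the 27 genes in the first stretch had another tRNA 5′ end within 1000 bp, against 49 of the 89 in the middle and 29 of the 56 in the last. The part of crowding in the uneven placement was not tested, and neighbouring genes that share a summit are counted singly. Other X genes and other X summits were not counted by stretch, so the unevenness cannot be called particular to tRNA genes. The numbers of genes with a summit in each stretch are small.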
